A study of Mus musculus with 9 samples.

Results

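Transcripts of 10 receptor genes of myeloid cells were followed across 3 treatments of RAW264.7 cells: Lilrb4a, Pirb, Sirpa and Cd300lf, which encode inhibitory receptors, and Pira2, Sirpb1b, Tarm1, Cd300e, Clec4e and Clec7a, which encode activating receptors. The genes were taken by symbol from the 23282 gene rows of each library, and all 10 had 1 row. The first 8 belong to immunoglobulin-like families, and Clec4e and Clec7a are C-type lectins, so the set is wider than immunoglobulin-like and SIRP receptors. RAW264.7 is a macrophage line of BALB/c mice, here at passage 30, which turns into osteoclast-like cells under RANKL, a cytokine that drives osteoclast formation. The 3 groups, each with 3 libraries, received for 4 days RANKL alone at 50 ng/mL (the negative control), RANKL with surface proteins of Propionibacterium freudenreichii MJ2 at 10 µg/mL, or heat-killed MJ2 at 10000000 cells/mL. Whether RANKL was also added with heat-killed MJ2 is not stated for each of those libraries. All libraries came from 1 cell line and no label says that replicates were separate cultures, so p-values measure only the spread between these samples.

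Paired receptors are families in which closely related members send opposite signals. Inhibitory members carry tyrosine motifs (ITIMs) in their cytoplasmic tails, which recruit the phosphatases SHP-1 and SHP-2, encoded by Ptpn6 and Ptpn11. Most activating members have short tails and borrow the ITAM adaptors DAP12 (Tyrobp) or the Fc receptor γ chain (Fcer1g), which recruit the kinase Syk, and Syk signals through Card9. Dectin-1, the product of Clec7a, instead carries an ITAM-like motif in its own tail. In osteoclast precursors these adaptors also provide the co-stimulation that acts beside RANKL.

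Most of the 10 genes lie near relatives of their families. Tarm1 (chr7:3486500-3502624), Pirb (chr7:3711409-3720391) and Pira2 (chr7:3836812-3845051) share a stretch of chromosome 7, Cd300e (chr11:115051917-115062177) and Cd300lf (chr11:115116214-115133992) one of chromosome 11, and Clec4e (chr6:123281789-123289870) and Clec7a (chr6:129461591-129472779) lie on chromosome 6. Sirpa (chr2:129592835-129632228), Sirpb1b (chr3:15495751-15575065) and Lilrb4a (chr10:51490956-51496611) are each alone on a chromosome. Sirpa and Lilrb4a are on the plus strand and the others on the minus strand. Positions are those of GENCODE M21 on GRCm38, where Clec7a is annotated as a polymorphic pseudogene and the other 9 genes as protein-coding. The promoter windows of 4 genes are shown because they belong to the neighbours Tarm1, Pirb and Pira2 and to Clec4e, the most abundant activating member in both treated groups. Each window runs 5′ to 3′ from 250 bases before to 50 bases after the gene's start in RefSeq on GRCm38.p6. Capitals mark matches, on either strand, to the ETS-like motif GAGGAAG, to a loose NF-κB motif of 3 G, 5 bases of any kind and 2 C, and to the C/EBP-like motif TTGCNNAA. Matches may overlap each other.
Pirb (chr7:3720333-3720632, minus strand): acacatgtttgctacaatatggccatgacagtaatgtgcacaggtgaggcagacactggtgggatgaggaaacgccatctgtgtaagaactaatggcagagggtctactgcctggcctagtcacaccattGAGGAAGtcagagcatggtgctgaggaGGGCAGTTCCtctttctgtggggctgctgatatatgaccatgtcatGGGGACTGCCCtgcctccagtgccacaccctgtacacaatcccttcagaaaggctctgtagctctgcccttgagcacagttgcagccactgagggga
Pira2 (chr7:3845002-3845301, minus strand): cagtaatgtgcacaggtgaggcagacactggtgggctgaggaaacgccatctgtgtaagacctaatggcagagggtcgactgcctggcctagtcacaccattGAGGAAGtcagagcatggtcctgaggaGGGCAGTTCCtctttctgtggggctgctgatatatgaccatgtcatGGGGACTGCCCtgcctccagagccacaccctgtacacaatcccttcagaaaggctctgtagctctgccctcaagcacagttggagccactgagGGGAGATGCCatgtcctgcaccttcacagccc
Tarm1 (chr7:3502575-3502874, minus strand): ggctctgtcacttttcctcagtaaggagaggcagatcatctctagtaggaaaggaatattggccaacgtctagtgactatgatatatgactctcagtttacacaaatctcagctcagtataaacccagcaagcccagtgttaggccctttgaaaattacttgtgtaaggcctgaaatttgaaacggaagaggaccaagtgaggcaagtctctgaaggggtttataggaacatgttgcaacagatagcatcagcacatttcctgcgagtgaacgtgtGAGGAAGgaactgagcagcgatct
Clec4e (chr6:123289822-123290121, minus strand): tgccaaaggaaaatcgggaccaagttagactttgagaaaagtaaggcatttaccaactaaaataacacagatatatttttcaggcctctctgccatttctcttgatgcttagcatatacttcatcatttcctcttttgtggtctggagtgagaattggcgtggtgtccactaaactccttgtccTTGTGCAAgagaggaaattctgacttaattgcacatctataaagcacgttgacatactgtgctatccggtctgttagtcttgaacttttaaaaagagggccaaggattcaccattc

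The windows of Pirb and Pira2, an inhibitory and an activating receptor, overlapped in an alignment of 272 bases without gaps and were identical at 264 of them (97.1%), with 8 bases differing. The table of promoters held windows for 8 of the 10 genes, and 2 for Clec7a. Motifs of 6 kinds were searched on both strands. GAGGAAG was found in 4 of the 8 genes (Pirb, Pira2, Tarm1 and Cd300lf) and in 13.6% of the 32851 windows of all genes. The loose NF-κB motif was found in Pirb and Pira2 and in 50.8% of all windows, and TTGCNNAA in Clec4e and in 10.8%. An IRF motif, GAAA repeated after 2 bases of any kind, was found in Sirpb1b and in 3.44% of all windows. The ETS core GGAA, which lies within GAGGAAG, was found in all 8 genes, as in 96.0% of all windows. The AP-1 motif TGANTCA was found in none of the 8 and in 7.81% of all windows. These matches describe letters only and were not measured as binding sites.

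Values are given as adjusted reads, that is 2 raised to the deposited log2 value, minus 1. The libraries summed to between 5930926 and 6503682 adjusted reads, and 1 read was worth between 0.924 and 1.11 of them. The kit counts mRNAs by their 3′ ends, so a value does not grow with transcript length. Levels of different genes can be set side by side, but less surely for Lilrb4a, Pira2 and Sirpb1b. Their 3′ ends occur wholly or in part in transcripts of other genes. The defining markers of macrophages were present in every group: 6, 7 and 7 of 8 were above 3 adjusted reads in all libraries with RANKL alone, heat-killed MJ2 and surface proteins, with Mrc1 at 7.90 or less, and the list summed to 14727 to 16611, 22131 to 22796 and 18009 to 19682. The 9 osteoclast markers differed between the groups, with 8 of 9 above 3 adjusted reads in all libraries of every group, Calcr at 4.93 or less, and sums of 17104 to 28423 with RANKL alone, 12114 to 14066 with heat-killed MJ2 and 4966 to 7354 with surface proteins. Ctsk and Acp5 had the highest means in every group, while Mmp9 and Itgb3 had higher means with heat-killed MJ2 (1983 and 42.1) than with RANKL alone (1398 and 32.4), with overlapping ranges. Single macrophage markers also differed between the groups, in both directions. Adgre1 had 26.7 to 106 adjusted reads with RANKL alone, 186 to 255 with heat-killed MJ2 and 712 to 1113 with surface proteins, and Fcgr1 had 2.95 to 33.7, 111 to 208 and 828 to 986. Itgam, Cd14 and Lyz2 were higher in every treated library than in any control library, with Itgam at 212 to 259, 998 to 1347 and 1743 to 2152 in the same order. Csf1r went the other way, from 8809 to 9877 with RANKL alone to 5552 to 6575 and 2657 to 4161. Each receptor result below therefore stands beside group differences in osteoclast and macrophage markers, whose part in it was not tested. In these bulk samples fewer cells of a type and less RNA per cell cannot be told apart. T cell and neutrophil markers stayed at or under 3 adjusted reads in all libraries for each gene, and the 4 B cell markers summed to at most 10.7.

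With surface proteins, 7 of the 10 receptor genes rose over RANKL alone and none fell. The test was limma on the log2 values of the 6 libraries compared, run over genes that reached 10 adjusted reads in 3 or more of them. A gene passed when its Benjamini-Hochberg adjusted p was under 0.05 and it changed by a factor of 2 or more. Of all 10874 genes tested, 10.2% rose and 7.32% fell, 17.5% in all. Of the inhibitory genes 3 of 4 rose (Lilrb4a, Pirb and Cd300lf) and of the activating genes 4 of 6 (Tarm1, Cd300e, Sirpb1b and Clec4e). All 7 calls held in each of the 6 fits that left out 1 library. Here and below these fits kept the genes that the filter had passed on all 6 libraries. Sirpb1b, Tarm1 and Cd300e reached 10 reads in the 3 surface protein libraries alone. With the filter applied again they would not be tested when 1 of those was left out. The same is true of Sirpb1b and Cd300e with heat-killed MJ2, and of Pirb and Pira2 in the direct comparison of the treatments. For Pirb, Pira2, Sirpb1b, Tarm1 and Cd300e only the libraries with surface proteins brought them past the filter on low values, so their counts are no support of their own. With heat-killed MJ2, 7 of the 10 genes could be tested and 5 rose over RANKL alone: Lilrb4a, Cd300lf, Sirpb1b, Cd300e and Clec4e. None of the 7 fell, and among all 10814 genes tested 3.37% rose and 0.897% fell (4.26% in all). Of these 5 calls, those of Lilrb4a, Sirpb1b and Cd300e held in all 6 fits that left out 1 library. The count fell to 3 without RANKL replicate 1 or without any of the 3 heat-killed MJ2 libraries. Sirpb1b and Cd300e passed the filter through the heat-killed MJ2 libraries alone. Both comparisons use the same 3 libraries with RANKL alone, so they are not independent.

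A filter on the mean over all 9 libraries, at least 10 adjusted reads, kept all 10 genes among 10871 and was added after the data were seen. Pirb, Pira2 and Tarm1 reached it only through their high values with surface proteins, so the counts and medians that follow describe the 10 genes and support no direction. Under it 7, 6 and 5 of the 10 genes rose with surface proteins, with heat-killed MJ2 and with surface proteins against heat-killed MJ2, where 10.1%, 3.38% and 5.03% of all 10871 genes did. The median log2 fold change of the 10 genes in these fits was 3.17 with surface proteins (all genes -0.0073) and 2.24 with heat-killed MJ2 (all genes -0.00067). For the inhibitory genes these medians were 2.44 and 0.75, and for the activating genes 3.64 and 2.90. With genes whose RANKL libraries were all at or under 3 reads set to their lower bound, the heat-killed MJ2 medians became 1.94 for the 10 genes and 2.33 for the activating ones, and those with surface proteins did not move.

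**Figure D1:**
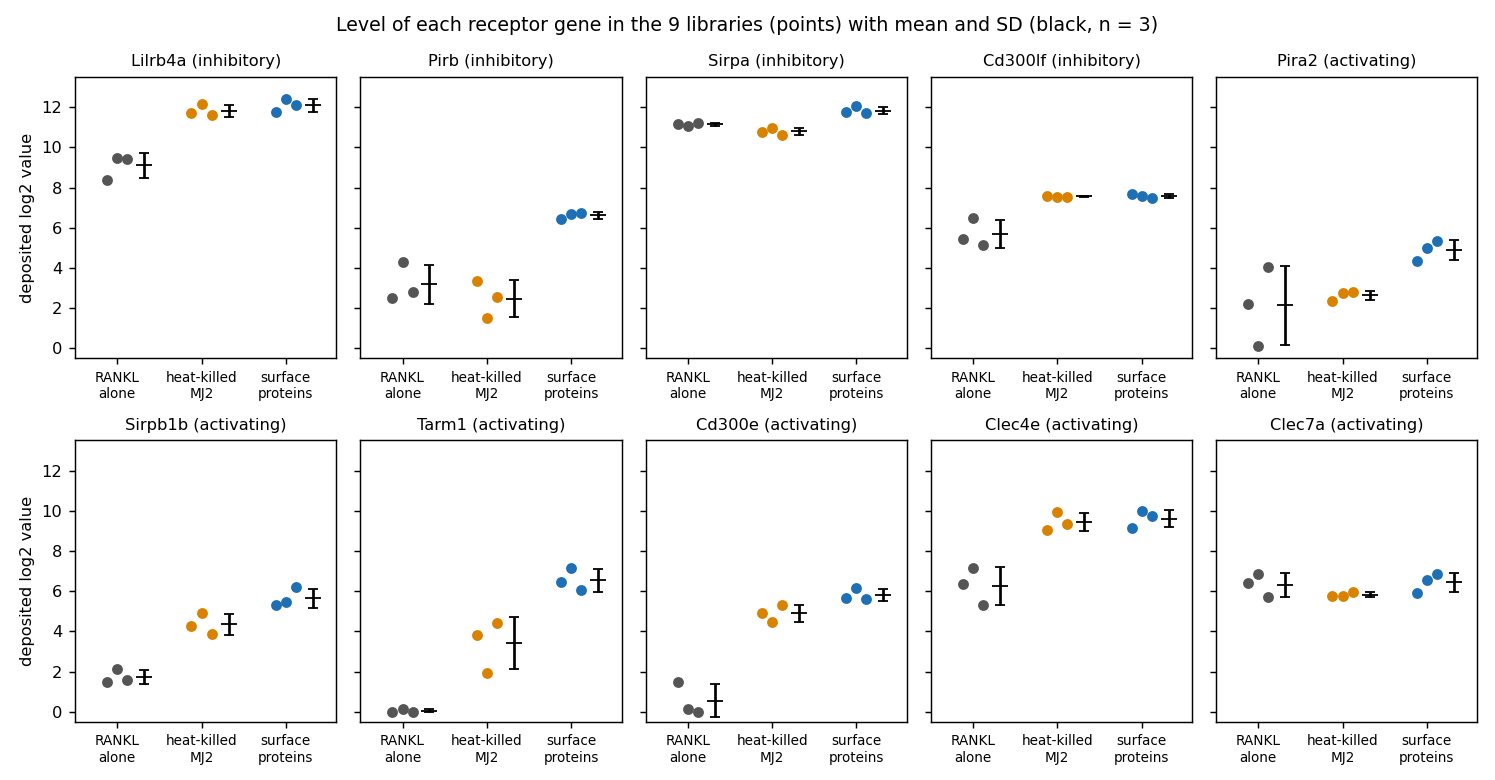
Deposited log2 value (y axis) of each of the 10 receptor genes in each library, by group on the x axis. Points are libraries in the order of replicate numbers, and the black mark and bar beside them are the mean and SD (n = 3). Tarm1 and Cd300e lie near 0 with RANKL alone, Pirb stands apart only with surface proteins, and the Clec7a groups overlap.

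Lilrb4a encodes gp49B, an inhibitory receptor of macrophages and mast cells. Its adjusted reads in replicates 1 to 3 were 329, 718 and 698 with RANKL alone, 3328, 4629.7 and 3166 with heat-killed MJ2, and 3460.1, 5411 and 4475 with surface proteins. Every treated library lay above every library with RANKL alone, and the treated groups overlapped each other. The mean log2 value went from 9.10 ± 0.64 to 11.84 ± 0.30 and 12.10 ± 0.32 (SD, n = 3), with log2 fold changes of 2.73 (SE 0.34, adjusted p = 0.0117 from limma) for heat-killed MJ2 and 2.99 (SE 0.35, adjusted p = 0.00263) for surface proteins. Sirpa was the most abundant of the 10 genes with RANKL alone and Lilrb4a with heat-killed MJ2, and with surface proteins the ranges of both overlapped.

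Its chromosomal neighbour Lilr4b moved with it. Among the 75-base windows of the last 500 bases of the longest coding transcript of Lilrb4a, 39.2% also occurred in a transcript of Lilr4b and 100% in Gm49339, a gene annotated across both. How reads shared between genes were counted is not given in the sources used here, so the split between Lilrb4a and Lilr4b is uncertain. The ratio of Lilrb4a to Lilr4b was 2.45 to 2.53 with RANKL alone, 1.71 to 2.17 with heat-killed MJ2 and 1.89 to 2.10 with surface proteins. The sum of both rows, which does not change if reads are only moved between them but can hold reads counted for both, had lowest and highest values of 459 and 1011 with RANKL alone, 4629 and 7340.4 with heat-killed MJ2, and 5293 and 8190.5 with surface proteins.

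Pirb, a receptor for MHC class I molecules, stood apart in the libraries with surface proteins. It had 4.59, 18.4 and 5.91 adjusted reads with RANKL alone, 9.24, 1.89 and 4.88 with heat-killed MJ2, and 85.2, 103 and 107 with surface proteins. The first 2 groups overlapped, and all libraries with surface proteins lay above both. The log2 fold change was 3.44 (SE 0.47, adjusted p = 0.00405 from limma) over RANKL alone and 4.15 (SE 0.44, adjusted p = 0.00666) over heat-killed MJ2. Against RANKL alone, heat-killed MJ2 left Pirb below the filter on low values. In the fit with the added filter its difference was -0.70 (SE 0.62, adjusted p = 0.56, 95% interval -2.21 to 0.81).

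Sirpa encodes the receptor for CD47, a signal that restrains phagocytosis. It had 2295, 2161 and 2348 adjusted reads with RANKL alone, 1771, 1989.6 and 1597 with heat-killed MJ2, and 3419.5, 4228 and 3377 with surface proteins. No 2 of the 3 groups overlapped, with heat-killed MJ2 lowest and surface proteins highest. The difference over RANKL alone was 0.69 on the log2 scale (SE 0.15, adjusted p = 0.0189 from limma) with surface proteins, short of a fold change of 2. With heat-killed MJ2 it was -0.35 (SE 0.14, adjusted p = 0.209). Surface proteins against heat-killed MJ2 gave a rise of 1.04 (SE 0.16, adjusted p = 0.0140), which is close to the limit. Without heat-killed MJ2 replicate 1 or 3 the adjusted p was 0.0591 or 0.0546, and without surface protein replicate 2 the value was 0.93, under the fold change limit.

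Cd300lf, an inhibitory receptor that binds lipids of the cell surface, took the same level in both treated groups. It had 43.0, 89.6 and 34.6 adjusted reads with RANKL alone, 193, 182 and 187 with heat-killed MJ2, and 202, 193 and 179 with surface proteins. The rise was 1.85 (SE 0.35, adjusted p = 0.0355 from limma) with heat-killed MJ2 and 1.88 (SE 0.35, adjusted p = 0.0112) with surface proteins. The difference between the treated groups was 0.026, with a 95% interval from -0.28 to 0.33. The call for heat-killed MJ2 was lost in 5 of 6 fits that left out a library, all but that without RANKL replicate 2, while the value stayed between 1.58 and 1.88 in those 5 (adjusted p between 0.0794 and 0.117).

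Tarm1, an activating receptor of myeloid cells that couples to the Fc receptor γ chain, was, like Cd300e, under the floor of 3 reads in every control library. With RANKL alone it had 0, 0.0951 and 0 adjusted reads, less than 1 read in each library, which at this depth allows up to 3 reads. Heat-killed MJ2 gave 13.3, 2.85 and 20.6, and surface proteins gave 86.2, 142 and 64.6. The values of the 3 groups did not overlap, but heat-killed MJ2 replicate 2 lay under the floor, as the controls did. The level with surface proteins was at least 32.6-fold higher than with RANKL alone, counted against 3 reads per library, and limma gave an adjusted p of 0.000127. With heat-killed MJ2 the mean was at least 4.09-fold higher, but 1 of the 3 libraries stayed under 3 reads. The gene missed the filter, so that no call was made. Surface proteins exceeded heat-killed MJ2 by 3.14 on the log2 scale (SE 0.66, adjusted p = 0.0272). That call was lost without heat-killed MJ2 replicate 1 and without any of the 3 surface protein libraries, with adjusted p between 0.0591 and 0.0859. Over the 6 fits that left out a library the value lay between 2.41 and 3.65.

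Cd300e, an activating receptor of monocytes and macrophages, was also near 0 with RANKL alone, at 1.79, 0.0913 and 0 adjusted reads. It reached 28.7, 21.3 and 38.3 with heat-killed MJ2 and 49.9, 70.2 and 48.1 with surface proteins, again without overlap of the 3 groups. Against 3 reads per library, surface proteins raised it at least 18.7-fold (adjusted p = 0.000833 from limma) and heat-killed MJ2 at least 9.80-fold (adjusted p = 0.00571). The treated groups differed by 0.93 on the log2 scale (SE 0.26, adjusted p = 0.0559), which did not pass. Cd300e and the inhibitory Cd300lf are neighbours on chromosome 11, and both rose with either treatment.

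Sirpb1b, an activating relative of Sirpa that couples to DAP12, had 1.79, 3.34 and 1.96 adjusted reads with RANKL alone, 18.4, 29.0 and 13.7 with heat-killed MJ2, and 39.2, 42.3 and 72.0 with surface proteins. The 3 groups did not overlap and had the same order as for Tarm1 and Cd300e. The log2 fold change over RANKL alone was 2.63 (SE 0.31, adjusted p = 0.00959 from limma) with heat-killed MJ2 and 3.93 (SE 0.29, adjusted p = 0.000703) with surface proteins. Surface proteins exceeded heat-killed MJ2 by 1.29 (SE 0.34, adjusted p = 0.0483), a call that was lost without any 1 of the 6 libraries except heat-killed MJ2 replicate 2 (adjusted p between 0.0650 and 0.135, with values between 1.03 and 1.57 over the 6 fits). In the last 500 bases of its transcript, 53.5% of the windows also occur in Sirpb1a and 64.8% in Sirpb1c, so its reads may belong in part to those genes. Sirpb1a itself had 0, 0.0396 and 0 adjusted reads with RANKL alone, 6.12, 6.81 and 0 with heat-killed MJ2, and 8.85, 6.77 and 1.16 with surface proteins.

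Pira2, the activating counterpart of Pirb, spread widely with RANKL alone, at 3.68, 0.0770 and 15.8 adjusted reads. It had 4.12, 5.77 and 5.87 with heat-killed MJ2 and 19.6, 30.8 and 40.2 with surface proteins, where every library lay above all others. The difference of 2.77 (SE 0.95, adjusted p = 0.0727 from limma) from RANKL alone did not pass, and did without RANKL replicate 3, the highest of the controls (3.74, adjusted p = 0.0212), in the fit of all 9 libraries (adjusted p = 0.0333) and in the robust fit (adjusted p = 0.0240). Without RANKL replicate 2, the lowest, the difference was 1.76 (adjusted p = 0.0954), and over the other 5 fits that left out a library, none of which passed, the adjusted p reached 0.169. Over heat-killed MJ2 it rose by 2.27 (SE 0.28, adjusted p = 0.00924), a call lost in the fit of all 9 libraries (adjusted p = 0.0884). All windows in the last 500 bases of its transcript also occur in Gm15922, which lies where RefSeq places Pira1. The rows of Pira2 and Pira1 held equal values in 8 of the 9 libraries, so a value printed for Pira2 cannot be assigned to either gene alone. Pirb shared no window with another gene.

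Clec4e encodes Mincle, a receptor for mycobacterial glycolipids and for SAP130 from dead cells. It had 79.6, 144 and 38.5 adjusted reads with RANKL alone, 529, 975 and 639 with heat-killed MJ2, and 559.7, 1004 and 854 with surface proteins. Every treated library lay above every control library, and the treated groups overlapped. The log2 fold change was 3.16 (SE 0.49, adjusted p = 0.0224 from limma) with heat-killed MJ2 and 3.34 (SE 0.49, adjusted p = 0.00519) with surface proteins, and between the treated groups it was 0.18 (95% interval -0.57 to 0.93). The heat-killed MJ2 call was lost without any of the heat-killed MJ2 libraries and without RANKL replicate 1 (adjusted p between 0.0619 and 0.0751, with values between 2.68 and 3.62 over the 6 fits).

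Clec7a, which encodes the β-glucan receptor Dectin-1, did not pass in any comparison. It had 83.4, 115 and 50.4 adjusted reads with RANKL alone, 53.2, 53.2 and 60.8 with heat-killed MJ2, and 58.7, 94.1 and 113 with surface proteins, and its groups overlapped in each comparison. The log2 differences were 0.12 with surface proteins (95% interval -0.78 to 1.02, adjusted p = 0.83 from limma) and -0.49 with heat-killed MJ2 (95% interval -1.22 to 0.24, adjusted p = 0.39). Surface proteins against heat-killed MJ2 gave 0.61 (95% interval -0.0071 to 1.23, adjusted p = 0.145). The first of these changed sign when RANKL replicate 3 or surface protein replicate 3 was left out.

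**Figure D2:**
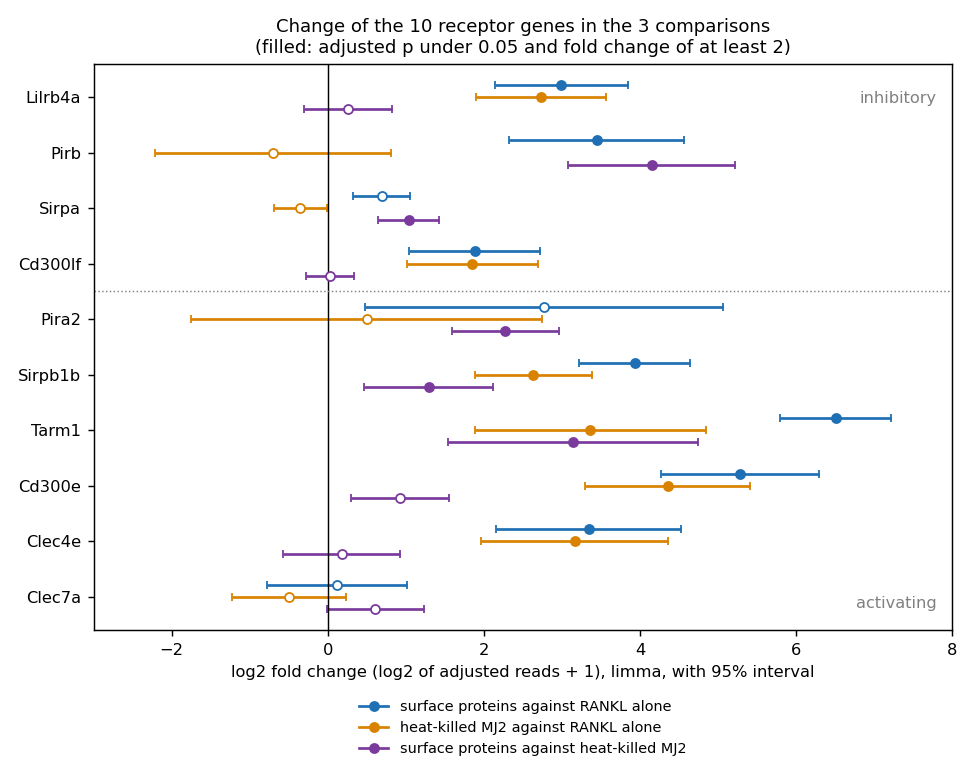
Log2 fold change (x axis) of each receptor gene with its 95% interval from limma, inhibitory genes above the dotted line and activating genes below it, in the fit with the filter on the mean of all 9 libraries. Filled points passed the test. Lilrb4a, Cd300lf and Clec4e have near equal values against RANKL alone in both treatments, and the intervals of Clec7a include 0 in all 3 comparisons. Pirb, Pira2 and Tarm1 passed this filter only through their high values with surface proteins.

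Set directly against heat-killed MJ2, surface proteins gave higher mean log2 values for all 10 genes, and 5 of the 10 rose: Pirb, Tarm1, Pira2, Sirpb1b and Sirpa, 2 inhibitory and 3 activating. Among all 10916 genes tested, 5.08% rose and 4.97% fell (10.1% in all). Of the 5 calls, those of Pirb and Pira2 held in all 6 fits that left out a library, that of Pira2 was lost in the fit of all 9 libraries together (adjusted p = 0.0884), and Pirb, Pira2 and Tarm1 had passed the filter through surface proteins alone. The median difference of the 10 genes was 0.98, against 0.031 for all genes tested. The 5 genes that did not pass were Lilrb4a, Cd300lf, Clec4e, Cd300e and Clec7a, with differences between 0.026 and 0.93. The exact two-sided permutation test over 3 against 3 libraries cannot give less than p = 0.1, which groups of 3 without overlap reach. With surface proteins 9 of the 10 genes lay above RANKL alone without overlap, as did 24.8% of the 10871 genes (48.4% in either direction). With heat-killed MJ2 6 lay above RANKL alone (15.6% of the genes) and Sirpa below it (30.2% in either direction), and 6 were higher with surface proteins than with heat-killed MJ2 (22.1%, or 42.3% in either direction). Tarm1 was among the 6 above RANKL alone, with 1 heat-killed MJ2 library under 3 reads.

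The make-up of the receptor transcripts shifted with either treatment. Inhibitory genes summed to 2672 to 3087 adjusted reads with RANKL alone, 4955 to 6803 with heat-killed MJ2 and 7166 to 9935 with surface proteins. Activating genes summed to 107 to 262, 647 to 1087 and 813 to 1384. Their share of the reads of all 10 genes was 3.34 to 8.07% with RANKL alone, 10.9 to 13.8% with heat-killed MJ2 and 10.2 to 12.8% with surface proteins, so the treated groups overlapped and both lay above the control. The rise of this share was that of Clec4e: the other 5 activating genes held 2.14 to 3.66%, 1.42 to 2.43% and 3.18 to 3.62% of the same reads, with each treated group overlapping the control. Sirpa took 72.3 to 85.9% of the inhibitory reads with RANKL alone, 29.2 to 33.4% with heat-killed MJ2 and 41.5 to 47.7% with surface proteins. Lilrb4a took 12.3 to 24.0%, 62.8 to 68.1% and 48.3 to 55.0% in the same order. Its shares depend on how reads shared with Lilr4b and Gm49339 were counted, which is not known. Clec4e made up 36.1 to 54.7% of the activating reads with RANKL alone, 81.8 to 89.7% with heat-killed MJ2 and 68.8 to 72.6% with surface proteins. The order of levels in the control was Sirpa, Lilrb4a, then Clec4e, Clec7a and Cd300lf with overlapping ranges, and the other 5 genes had at most 18.4 adjusted reads. With surface proteins the ranges of Lilrb4a and Sirpa overlapped at the top, followed by Clec4e and Cd300lf apart from their neighbours. The ranges of each of the 6 lowest genes overlapped that of the next, from Pirb, Tarm1, Clec7a, Cd300e and Sirpb1b to Pira2.

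**Figure D3:**
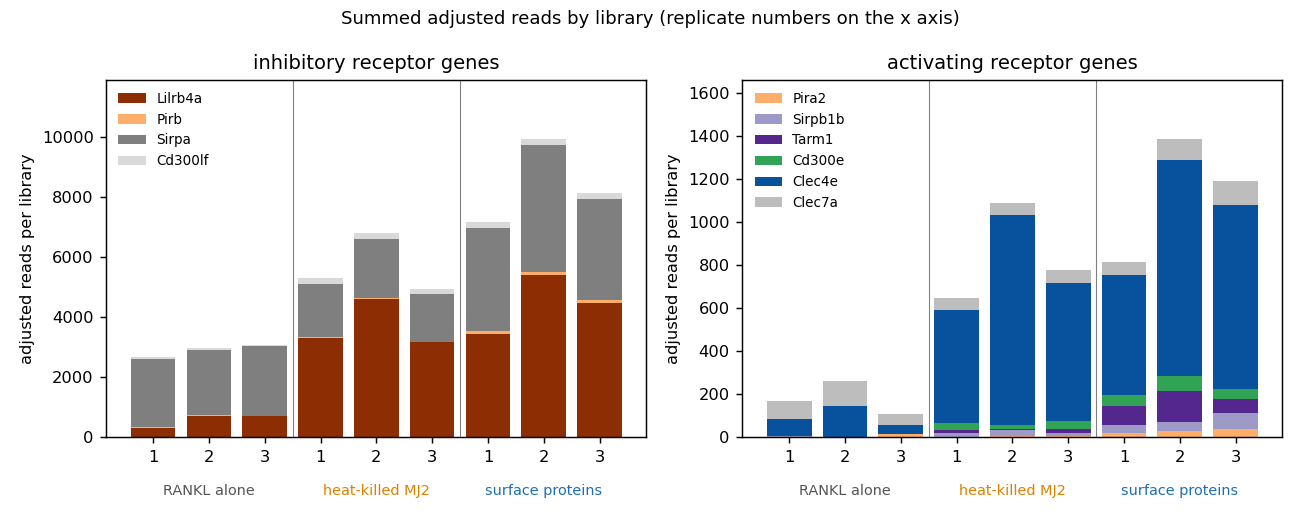
Summed adjusted reads (y axis) of the 4 inhibitory genes on the left and the 6 activating genes on the right, 1 bar per library with the replicate number on the x axis, stacked by gene. Inhibitory sums run from 2672 to 3087 with RANKL alone and from 7166 to 9935 with surface proteins, and activating sums from 107 to 262 and from 813 to 1384.

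Relatives of the 10 genes were described from a list of 36 genes of the same families, of which 28 had a row. With surface proteins 6 of the 15 tested rose over RANKL alone and 1 fell, where 10.2% of all genes rose and 7.32% fell. With heat-killed MJ2 4 of the 13 tested rose and 2 fell (3.37% and 0.897% of all genes). Surface proteins against heat-killed MJ2 gave 8 higher and 1 lower of 15 (5.08% and 4.97% of all genes). Some of these genes passed the filter only through the surface protein libraries, where they were high: Pira6 and Clec4a1 in the first comparison, and Pira1, Pira6, Clec4a1 and Clec4b1 in the last. The counts are therefore set beside the shares as a description. When 1 library was left out, between 3 and 5 of the 6 calls with heat-killed MJ2 held, 3 of them without RANKL replicate 2 or 3 or heat-killed MJ2 replicate 2 or 3. Of the 9 calls of the last comparison between 3 and 6 held, 3 without heat-killed MJ2 replicate 1, 4 without heat-killed MJ2 replicate 3 or surface protein replicate 1, and 5 without surface protein replicate 3. Clec4d, which encodes the lectin that pairs with Mincle, had 312, 289 and 126 adjusted reads with RANKL alone, 1822, 2294 and 1898 with heat-killed MJ2, and 2110.4, 3479 and 2453 with surface proteins. It rose by 3.14 (SE 0.36, adjusted p = 0.00876 from limma) and 3.54 (SE 0.39, adjusted p = 0.00219), and the ratio of Clec4e to Clec4d stayed within overlapping ranges of 0.255 to 0.497, 0.290 to 0.425 and 0.265 to 0.348. Lilr4b rose by 3.06 and 3.32 (adjusted p = 0.0123 and 0.00206). Cd300ld, between Cd300a and Cd300e on chromosome 11, rose by 2.10 (adjusted p = 0.0358) and 3.13 (adjusted p = 0.00363). The first of these calls was lost in 5 of 6 fits that left out a library, and held only without RANKL replicate 1.

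Clec4n and Clec4a3 lie in the same lectin cluster as Clec4e, and they differed in the treatment with which they rose. Clec4n, which encodes Dectin-2, a receptor for fungal mannans, had 24.3, 33.5 and 18.8 adjusted reads with RANKL alone, 194, 227 and 295 with heat-killed MJ2, and 34.2, 66.2 and 40.8 with surface proteins. It rose by 3.19 (SE 0.26, adjusted p = 0.00231 from limma) with heat-killed MJ2. With surface proteins the difference was 0.84 (adjusted p = 0.0924), and the direct comparison gave -2.35 (SE 0.29, adjusted p = 0.00876). Clec4a3 had 119.9, 73.4 and 48.4, then 108, 129.6 and 111, and 789.7, 657 and 701 in the same order. It rose by 3.23 (SE 0.33, adjusted p = 0.00173) over RANKL alone and 2.61 (SE 0.15, adjusted p = 0.00321) over heat-killed MJ2 with surface proteins. Clec4a1 rose by 3.73 (adjusted p = 0.00350) over RANKL alone, and its rise over heat-killed MJ2 of 2.73 (adjusted p = 0.0404) was lost in 5 of 6 fits that left out a library, all but that without heat-killed MJ2 replicate 2.

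Other relatives fell or lay at low levels. Clec4a2, an inhibitory lectin, fell by 1.19 (adjusted p = 0.0117 from limma) with surface proteins. With heat-killed MJ2 it also lay below every control library (247 to 342 against 480 to 807 adjusted reads) but did not pass. With heat-killed MJ2 Clec4a4 fell by 1.15 (adjusted p = 0.0385) and Clec12a, an inhibitory receptor for uric acid crystals, by 1.08 (adjusted p = 0.0392), calls that were each lost in 5 of 6 fits that left out a library and held without heat-killed MJ2 replicate 1 for Clec4a4 and without RANKL replicate 1 for Clec12a. Surface proteins gave more Clec12a than heat-killed MJ2, by 1.35 (SE 0.18, adjusted p = 0.0111), which held in all 6 such fits. Pira6 had 1.81, 3.30 and 0 adjusted reads with RANKL alone, 0.0182, 3.85 and 0 with heat-killed MJ2, and 32.4, 10.6 and 15.2 with surface proteins. It entered the test through the surface protein libraries alone, so a higher value there was a condition of being tested. The log2 difference from RANKL alone was 3.01 (SE 0.63, adjusted p = 0.0164), which passed in all 6 fits that left out a library. Its rise of 3.44 over heat-killed MJ2 (adjusted p = 0.0260) held only without heat-killed MJ2 replicate 2 among the fits that left out a library. Pira1, inseparable from Pira2, rose by 2.20 (adjusted p = 0.0134) over heat-killed MJ2 and did not pass without heat-killed MJ2 replicate 1 (adjusted p = 0.0579).

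**Figure D4:**
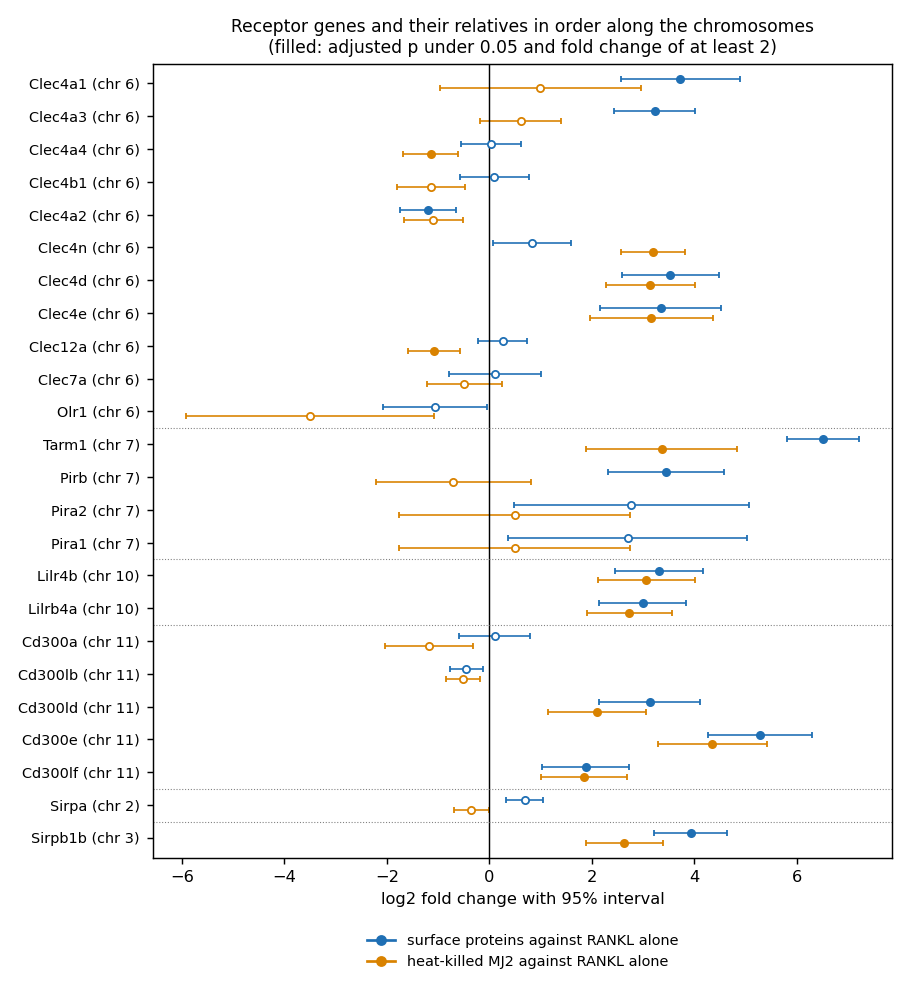
Log2 fold change (x axis) with 95% interval from limma over RANKL alone for the receptor genes and those relatives whose mean over the 9 libraries was at least 10 adjusted reads, ordered by chromosome and position along it. Filled points passed the test. In the Clec4e cluster Clec4d and Clec4e rose with both treatments, Clec4n with heat-killed MJ2 and Clec4a3 with surface proteins.

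Among 25 genes of the adaptors, kinases and phosphatases below these receptors, all tested, 6 rose with surface proteins and none fell (10.2% and 7.32% of all genes), and 2 rose with heat-killed MJ2 and none fell (3.37% and 0.897% of all genes). With surface proteins 3 were higher than with heat-killed MJ2 and none lower (5.08% and 4.97% of all genes). The ITAM adaptors Tyrobp and Fcer1g did not pass. Tyrobp differed by -0.17 (adjusted p = 0.42 from limma) with surface proteins and -0.44 (adjusted p = 0.12) with heat-killed MJ2. Fcer1g had 2343, 2373 and 2642 adjusted reads with RANKL alone and 4167, 5540.3 and 4084 with surface proteins, a difference of 0.89 (SE 0.17, adjusted p = 0.0126) that fell short of the fold change limit, and with heat-killed MJ2 it differed by 0.27 (adjusted p = 0.29). Syk differed by 0.29 and 0.022, Ptpn6 by 0.036 and -0.36, Ptpn11 by 0.28 and 0.37 and Inpp5d, which encodes the lipid phosphatase SHIP-1, by -0.39 and -0.36 (surface proteins and heat-killed MJ2 in this order, all with adjusted p of at least 0.0823).

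Fyb and Card9 passed with both treatments. Fyb, which encodes an adaptor between Src kinases and integrins, had 361, 426 and 418 adjusted reads with RANKL alone, 1685, 2039.9 and 1394 with heat-killed MJ2, and 5799.7, 7057 and 6246 with surface proteins, with no overlap between groups. Its log2 fold change was 2.07 (SE 0.18, adjusted p = 0.00310 from limma) with heat-killed MJ2 and 3.98 (SE 0.15, adjusted p = 6.5e-05) with surface proteins. Card9 had 1.79, 4.43 and 7.90 adjusted reads with RANKL alone, 56.2, 25.1 and 23.5 with heat-killed MJ2, and 69.6, 51.9 and 19.8 with surface proteins. It rose by 2.70 (SE 0.51, adjusted p = 0.0373) and 3.06 (SE 0.59, adjusted p = 0.0124), and the first of these held in only 1 of 6 fits that left out a library, that without RANKL replicate 3. Card9 had no control library at 10 adjusted reads and passed the filter on low values through the treated libraries alone, so its calls and its place in the counts above are no support of their own. With surface proteins Fyn rose by 1.47 and Vav1 by 1.29 (adjusted p = 0.00207 and 0.00395). Lyn and Fgr, named after their values were seen, rose by 1.12 and 1.08 (adjusted p = 0.00363 and 0.0349), and Fgr was lost in all 6 fits that left out a library.

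Of 10 ligand genes, 8 could be tested, and with surface proteins 2 rose and 2 fell over RANKL alone (10.2% and 7.32% of all genes). Cd47, the ligand of Sirpa, had 737, 956 and 804 adjusted reads with RANKL alone, 739, 1129.7 and 662 with heat-killed MJ2, and 2358, 1877 and 2223 with surface proteins. It rose by 1.37 (SE 0.17, adjusted p = 0.00308 from limma) over RANKL alone and by 1.38 (SE 0.23, adjusted p = 0.0166) over heat-killed MJ2, a call lost without heat-killed MJ2 replicate 1 or 3 or surface protein replicate 3 (adjusted p up to 0.0678). H2-D1, an MHC class I gene and so a ligand of Pirb, rose by 1.10 with surface proteins (adjusted p = 0.00441), while B2m, the light chain of the same molecules, differed by 0.76 (adjusted p = 0.0174) and did not reach a fold change of 2. Apoe fell by 2.09 (adjusted p = 0.0169) and Angptl2 fell by 2.12 (adjusted p = 0.00788), and without surface protein replicate 2 Apoe did not pass (adjusted p = 0.0503). With heat-killed MJ2 Apoe and Angptl2 also lay below RANKL alone in every library, by log2 differences of -1.91 (adjusted p = 0.0690) and -0.98 (adjusted p = 0.0614). None of the 8 passed there in the main fit, where 3.37% of all genes rose and 0.897% fell. Under 5 of the 18 alternatives 1 ligand gene passed, among them an unadjusted p under 0.05 with the same fold change limit.

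**Figure D5:**
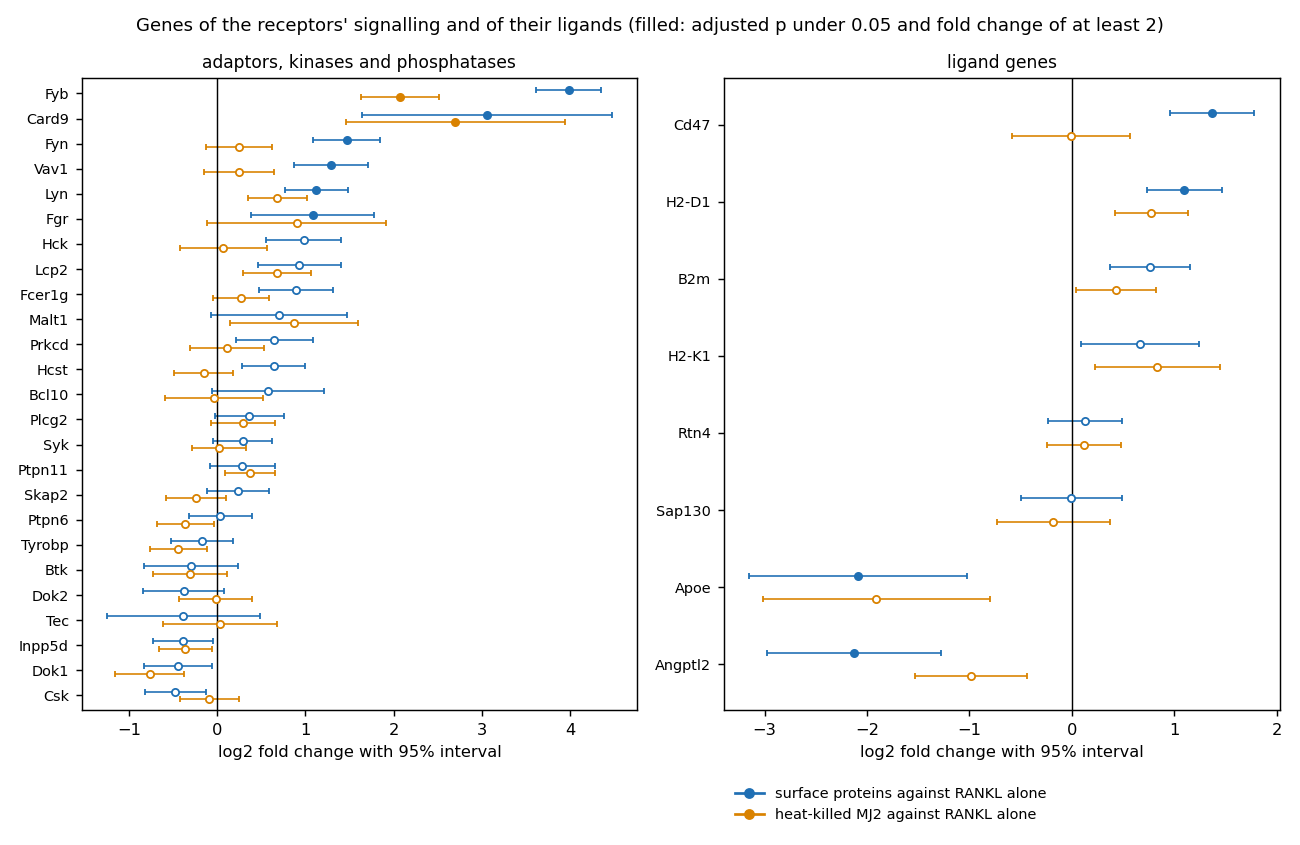
Log2 fold change (x axis) over RANKL alone with 95% interval from limma for the 25 signalling genes on the left and the 8 tested ligand genes on the right, ordered by the value with surface proteins. Filled points passed the test. Fyb and Card9 passed in both treatments, and Cd47 with surface proteins only.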

How the data were processed

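RNA of 9 RAW264.7 libraries, 3 per group by the labels, was sequenced from the 3′ end of mRNA in single-end reads. The authors deposited 1 log2 value per gene row with 3 decimals. By the labels' processing notes Bowtie2, bedtools and mm10 were used, without versions. The methods name quantile normalization, but sorted columns are not identical, so the scaling is not known beyond that. The values contain a constant of 1 before the log. In low values (0.5 to 3.5 adjusted reads) 100% lay within 0.25 of a whole read in every library, and 3 libraries also list small values above 0 in place of 0. The floor of a gene without reads was set at 3 reads per library, which covers counting error only. Within groups a chi-square per degree of freedom of 7.47 to 21.2 showed no library to be a copy of another.

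Comparisons used limma 3.58.1 in R 4.3.3 on the deposited values of the 6 libraries compared, with no further scaling. Genes had to reach 10 adjusted reads in 3 or more libraries, and p-values were adjusted over all of them. On simulated data for surface proteins against RANKL alone, 200 of 200 genes changed 4-fold passed and 8 unchanged ones did, of 10745 tested. The simulation gave every gene the same fixed spread and changed only genes above a set control level. It therefore checks the code and does not cover receptor genes with low or widely spread control values. Alternatives were 2 scalings, 3 other filters, 2 other constants, 2 thresholds, a robust fit, a fit of the 9 libraries together, a replicate block and leaving out each library. Fits that left out a library kept the genes that had passed the filter on all 6. The third filter, on the mean over all 9 libraries, was added after the data were seen. Shared 75-base windows were counted over 141767 transcripts of GENCODE M21 on GRCm38 and promoters read from RefSeq GRCm38.p6, with Python 3.11.15, numpy 2.4.6, pandas 2.3.3 and matplotlib 3.10.9.

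The members and all gene lists were chosen with earlier results of these data known. All 10 receptors and Tyrobp, Fcer1g, Syk, Ptpn6, Ptpn11, Inpp5d, Cd47 and B2m were named whatever their values. From each other list up to 4 genes with the largest and 4 with the smallest change per comparison were named among those that passed without overlap, and a gene named in 1 comparison may be given in the others. The dendritic cell, fibroblast, T cell, B cell and neutrophil marker lists summed to at most 46.9 adjusted reads in a library.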

Additional observations from a re-analysis of the deposited data

How the results depend on the processing

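Over the 27 log2 fold changes of the receptor genes, 434 of 476 values under the alternatives kept their direction and their side of the threshold, 32 lost the call, 5 gained it and 5 changed sign. The gains, all with surface proteins over RANKL alone, were Pira2 in the fit over all 9 libraries (adjusted p = 0.0333), in the robust fit (adjusted p = 0.0240), with unadjusted p and without RANKL replicate 3, and Sirpa with no fold change limit. The 5 changes of sign were in differences that had not passed: Clec7a with surface proteins over RANKL alone (-0.20 and -0.080 without RANKL or surface protein replicate 3), and, with surface proteins over heat-killed MJ2, Cd300lf (-0.055 with equal totals and -0.013 without surface protein replicate 1) and Clec4e (-0.011 without heat-killed MJ2 replicate 1). Over the fits that left out a library these 3 differences reached up to 0.39, 0.073 and 0.43. The cause was not tested.

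For surface proteins over RANKL alone, a filter of 10 adjusted reads in all 6 libraries left 3 receptor genes past the threshold in place of 7. Pirb, Sirpb1b, Tarm1 and Cd300e dropped out, since they have control libraries under 10 reads. Without the fold change limit 3163 genes passed in place of 1902 with 11 signalling genes in place of 6, and no filter gave 11 relatives in place of 7. For heat-killed MJ2 over RANKL alone the counts were 304 genes, 3 receptor genes, 3 relatives and 1 signalling gene with no filter, against 461, 5, 6 and 2. A filter of 10 reads in all 6 libraries gave 3 receptor genes, 1 signalling gene and 1 ligand gene. Signalling genes came to 1 with quantile normalization and with a constant of 0.1, and to 4 with no fold change limit. Ligand genes came to 1 in place of 0 with a fit over all 9 libraries, the robust fit, no fold change limit and unadjusted p, and the last also gave 799 genes and 10 relatives.

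For surface proteins over heat-killed MJ2, 3 receptor genes in place of 5 passed with equal totals and with no filter, and 2 with 10 reads in all 6 libraries. No filter gave 730 genes in place of 1098 and no fold change limit 1949, with 6 signalling genes in place of 3. The call of Pira2 was lost in the fit over all 9 libraries (adjusted p = 0.0884). Ligand genes came to 2 in place of 1 with 10 reads in all 6 libraries, the fit over all 9 libraries, the robust fit and unadjusted p.

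Leaving out each library in turn gave 1490 to 1876 genes with surface proteins over RANKL alone, with 7 to 8 receptor genes. For heat-killed MJ2 over RANKL alone it gave 189 to 334 genes, 3 to 5 receptor genes, 3 to 5 relatives, 1 to 2 signalling genes and no ligand gene, with the fewest genes without heat-killed MJ2 replicate 1. For surface proteins over heat-killed MJ2 it gave 342 to 1167 genes, 2 to 5 receptor genes, 4 to 6 relatives and 0 to 2 ligand genes, again fewest without heat-killed MJ2 replicate 1.

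Samples with the same replicate number correlated at 0.0170 to 0.114 in their deviations from the group means, with 2 of 9 pairs over 0.1. Those with different numbers correlated at -0.0900 to 0.0458. The main fits did not use the numbers, but these values do not show the samples to be unpaired. A replicate block gave 289 genes in place of 461 and 1 signalling gene in place of 2 for heat-killed MJ2 over RANKL alone, where Cd300lf lost its call (adjusted p = 0.0820), and 3 receptor genes in place of 5 for surface proteins over heat-killed MJ2, where Sirpb1b and Tarm1 lost theirs (adjusted p = 0.101 and 0.0706). Depth limits Tarm1 and Cd300e, which are under the floor of 3 reads in all control libraries, and Sirpb1b, which is close to it.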
